A study of Mus musculus with 12 samples.

Results

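Jhy, Crtam, Ubash3b, Sorl1, Clmp and Tbcel are 6 genes of mouse chromosome 9 among 28188 gene symbols counted in RNA sequencing of splenic dendritic cells and B cells. They were chosen by name, as genes of 1 neighbourhood of the chromosome, with the differences between the strains NOD.Idd2 and NOD already known, so their strain differences are given here as descriptions without a test. Their cell type differences, which come from the same libraries, are given in the same way. All 6 symbols were found in the count table, all 6 passed the filter on low counts in dendritic cells, and 5 passed it in B cells, where Clmp had too few counts. NOD mice develop autoimmune diabetes spontaneously, and NOD.Idd2 mice carry on the NOD background the chromosome 9 diabetes locus Idd2 from the B10 strain. The ends of the introduced segment are not stated in the labels. The 4 groups of 3 libraries were NOD.Idd2 dendritic cells, NOD dendritic cells, NOD.Idd2 B cells and NOD B cells, all isolated from spleens of mice aged 12 weeks, with no treatment stated and NOD as the control strain. Whether the 3 libraries of a group came from separate animals is not stated, so every p-value here reflects the scatter among these libraries alone, which may be technical.

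The products of the 6 genes are of several kinds. CRTAM is an immunoglobulin-superfamily receptor of activated cytotoxic T cells and natural killer cells that binds the adhesion molecule CADM1, and UBASH3B (also called STS-1) is a phosphatase that dampens signalling from antigen receptors by acting on kinases such as SYK and ZAP70. SORL1 is a sorting receptor that moves cargo between the Golgi, endosomes and the cell surface with the help of retromer, CLMP is an adhesion molecule of the family of the coxsackievirus and adenovirus receptor, TBCEL is a tubulin cofactor-like protein linked to the turnover of tubulin, and loss of Jhy in mice disturbs motile cilia and leads to hydrocephalus.

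On build GRCm38 the genes lie, in order of coordinate, as Clmp (chr9:40685962-40785319, plus strand), Jhy (chr9:40894849-40964118), Crtam (chr9:40969691-41004628), Ubash3b (chr9:41011098-41161697), Sorl1 (chr9:41964720-42124297) and Tbcel (chr9:42412316-42507809), the last 5 on the minus strand. Jhy, Crtam and Ubash3b follow each other head to tail: 5.57 kb separate the start of Jhy from the end of Crtam, and 6.47 kb separate the start of Crtam from the end of Ubash3b. Clmp ends 109.5 kb from Jhy, and 803 kb lie between Ubash3b and Sorl1. Some genes of the neighbourhood overlap: the exons of Sorl1 share 185 bases with those of the antisense gene Gm16214, and those of Clmp share 463 bases with Gm16096 on the other strand. Whether counting used the strand is not stated, so reads of Sorl1 and Clmp cannot be told apart from those of these partners over the shared bases.

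Promoters from RefSeq (GRCm38.p6) were matched for 4 of the 6 members, without Crtam and Clmp, and are shown because Jhy and Ubash3b, with Crtam between them, were lower together in NOD.Idd2 B cells, and Sorl1 and Tbcel are set beside them as neighbours that differed little there. Each sequence runs 5′ to 3′ on the minus strand, from 250 bases before to 50 bases after an annotated start, and is that of the reference genome, not read from either strain. Capitals mark matches, on either strand, to the CCAAT box (CCAAT), the GC box (GGGCGG), the TATA box (TATAAA), the ETS core (GGAAGT), the octamer (ATGCAAAT) and the E-box (CACGTG).
Jhy, chr9:40964069-40964368: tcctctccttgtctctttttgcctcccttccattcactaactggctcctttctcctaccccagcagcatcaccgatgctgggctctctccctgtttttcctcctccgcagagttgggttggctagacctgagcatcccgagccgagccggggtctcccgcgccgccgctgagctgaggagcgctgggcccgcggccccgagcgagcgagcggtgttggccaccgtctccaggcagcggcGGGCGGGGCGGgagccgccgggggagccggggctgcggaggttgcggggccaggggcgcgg
Ubash3b, chr9:41158013-41158312: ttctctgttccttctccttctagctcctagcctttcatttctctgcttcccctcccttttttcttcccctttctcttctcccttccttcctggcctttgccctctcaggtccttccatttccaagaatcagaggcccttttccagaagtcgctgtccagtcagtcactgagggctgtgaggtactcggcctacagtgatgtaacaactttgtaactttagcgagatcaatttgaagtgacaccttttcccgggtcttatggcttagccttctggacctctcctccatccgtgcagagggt
Sorl1, chr9:42124248-42124547: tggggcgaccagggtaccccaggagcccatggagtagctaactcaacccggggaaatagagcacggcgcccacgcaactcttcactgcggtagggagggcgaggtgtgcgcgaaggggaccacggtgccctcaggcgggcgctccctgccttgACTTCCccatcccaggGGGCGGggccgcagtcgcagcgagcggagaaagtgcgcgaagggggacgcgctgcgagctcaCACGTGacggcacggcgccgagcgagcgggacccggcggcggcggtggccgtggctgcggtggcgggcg
Tbcel, chr9:42472189-42472488: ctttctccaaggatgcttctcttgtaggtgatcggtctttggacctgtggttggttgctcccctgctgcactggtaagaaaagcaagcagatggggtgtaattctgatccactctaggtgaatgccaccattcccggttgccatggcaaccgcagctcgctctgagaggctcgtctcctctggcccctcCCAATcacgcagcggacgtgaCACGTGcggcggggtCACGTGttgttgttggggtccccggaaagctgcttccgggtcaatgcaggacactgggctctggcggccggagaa
The Jhy promoter is 70% G and C with 28 CpG dinucleotides, and its 2 GC boxes overlap each other. That of Sorl1 is 72.3% G and C with 37 CpG and holds 1 GC box, 1 ETS core and 1 E-box. That of Ubash3b is 50% G and C with 5 CpG and holds none of the 6 motifs, and the RefSeq start used lies 3635 bases from the start of the GENCODE gene. That of Tbcel is 58.7% G and C with 16 CpG and holds 1 CCAAT box and 2 E-boxes, with a RefSeq start 35571 bases from that of the GENCODE gene. All 4 genes have other RefSeq starts, not printed, and the start nearest that of the GENCODE gene was used. The others of Jhy, 435 and 1084 bases away, have 48% and 38% G and C, each with 2 CpG, 1 TATA box and no GC box. The other of Ubash3b holds 1 CCAAT box, and those of Sorl1 and Tbcel hold none of the 6 motifs. Over 32851 promoters of 300 bases the medians were 52.7% G and C and 7 CpG, and the share with a match was 35.7% for the GC box, 7.15% for the E-box, 37.4% for the CCAAT box, 23.8% for the ETS core, 13.6% for the TATA box and 1.74% for the octamer.

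Library totals ran from 8663421 to 30337812 counts in dendritic cells and from 40344883 to 44632276 counts in B cells, with NOD.Idd2 dendritic cell replicate 3 the lowest. Levels are given in CPM, the standard rate of counts relative to library size, here after scaling by trimmed mean of M-values (TMM), with SD over n = 3. The labelled cell types matched their conventional dendritic cell and B cell markers, but not those of plasmacytoid dendritic cells. The sum of 7 conventional dendritic cell markers was 3949 CPM in NOD.Idd2 and 3922 CPM in NOD dendritic cells. In B cells that sum was 9.84 CPM in NOD.Idd2 and 10.3 CPM in NOD. In turn, 7 B cell markers summed to 114 CPM in NOD.Idd2 and 135 CPM in NOD dendritic cells. Their sum in B cells was 13556 CPM in NOD.Idd2 and 13408 CPM in NOD. The sum of 4 plasmacytoid dendritic cell markers went the other way. It was 221 CPM in NOD.Idd2 and 199 CPM in NOD dendritic cells, against 391 CPM in NOD.Idd2 and 394 CPM in NOD B cells. The B cell libraries numbered 3 stood apart from the other B cell libraries in both strains, with a chi-square per gene of 37.3 to 42.8 against 7.28 and 7.78 between replicates 1 and 2, so log2 fold changes of Crtam, Ubash3b, Sorl1 and Tbcel between the strains in B cells are also given without them. In dendritic cells 6 macrophage and monocyte markers, all with counts in every library, summed to 1313 to 1455 CPM in NOD.Idd2 and 1102 to 1259 CPM in NOD, without overlap, and their part in the strain differences of dendritic cells was not tested. The cell types also differed in sex: Xist was at 0.0410 to 0.154 CPM in dendritic cells and 1564 to 2088 CPM in B cells, and the Y-linked gene Ddx3y at 239 to 306 CPM in dendritic cells and 0 counts in B cells. Cell type and sex cannot be told apart in these libraries, and in bulk RNA fewer cells of a type and less RNA per cell cannot be told apart either.

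Jhy was near or at 0 in NOD.Idd2 cells of both types. In dendritic cells it had 0, 0 and 0 counts in NOD.Idd2, against 46, 53 and 35 counts in NOD, where the level was 1.76 ± 0.364 CPM. Over the group, 0 counts in NOD.Idd2 dendritic cells allow a level of up to 0.0489 CPM (3 counts). At that floor Jhy was 35.9-fold lower there than in NOD dendritic cells. The 95% exact counting interval of that ratio starts at 28.8-fold. Such floors, and the intervals here and below, cover counting error only, and a floor covers that of the 0 counts alone. In B cells it had 0, 0 and 1 counts in NOD.Idd2, against 3320, 3076 and 3564 counts in NOD. The NOD B cell level was 77.1 ± 5.11 CPM, and the ratio of 1 to 9960 counts corresponds to a level 9738-fold lower in NOD.Idd2 (95% exact counting interval 1747 to 384654). The groups did not overlap in either cell type. The processed pseudogene Gm18586 lies in an intron of Jhy on the same strand and was singled out after its values were seen. It had 0 counts over NOD.Idd2 B cells against 64 over NOD B cells. At a floor of 3 counts it was 20.9-fold lower, and the 95% exact counting interval starts at 16.5-fold.

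Crtam was lower in NOD.Idd2 cells of both types. In dendritic cells it was at 0.621, 0.400 and 0.455 CPM in NOD.Idd2 (0.492 ± 0.115) and at 1.31, 0.848 and 0.925 CPM in NOD (1.03 ± 0.249), from 4 to 32 counts a library. These groups did not overlap, and the log2 fold change, NOD.Idd2 minus NOD, was -1.04 (SE 0.35). In B cells it was at 0.813, 0.449 and 0.414 CPM in NOD.Idd2 (0.559 ± 0.221) and at 8.61, 7.71 and 6.52 CPM in NOD (7.61 ± 1.05), again with no overlap. There the log2 fold change was -3.77 (SE 0.27), and -3.70 (SE 0.24) without the libraries numbered 3.

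Markers of the cells that CRTAM is best known from were present in all libraries. In dendritic cells the sum of 9 T cell markers was 498 to 515 CPM in NOD.Idd2 and 484 to 561 CPM in NOD, and that of 8 natural killer cell markers 154 to 164 CPM in NOD.Idd2 and 140 to 173 CPM in NOD. In B cells the T cell sum was 88.3 to 143 CPM in NOD.Idd2 and 98.7 to 113 CPM in NOD, and the natural killer cell sum 17.4 to 28.1 CPM in NOD.Idd2 and 25.4 to 35.7 CPM in NOD. All 9 and all 8 markers had counts in every library, and the strains overlapped in each sum. Any part of these cells in the level of Crtam was not tested.

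**Figure D1:**
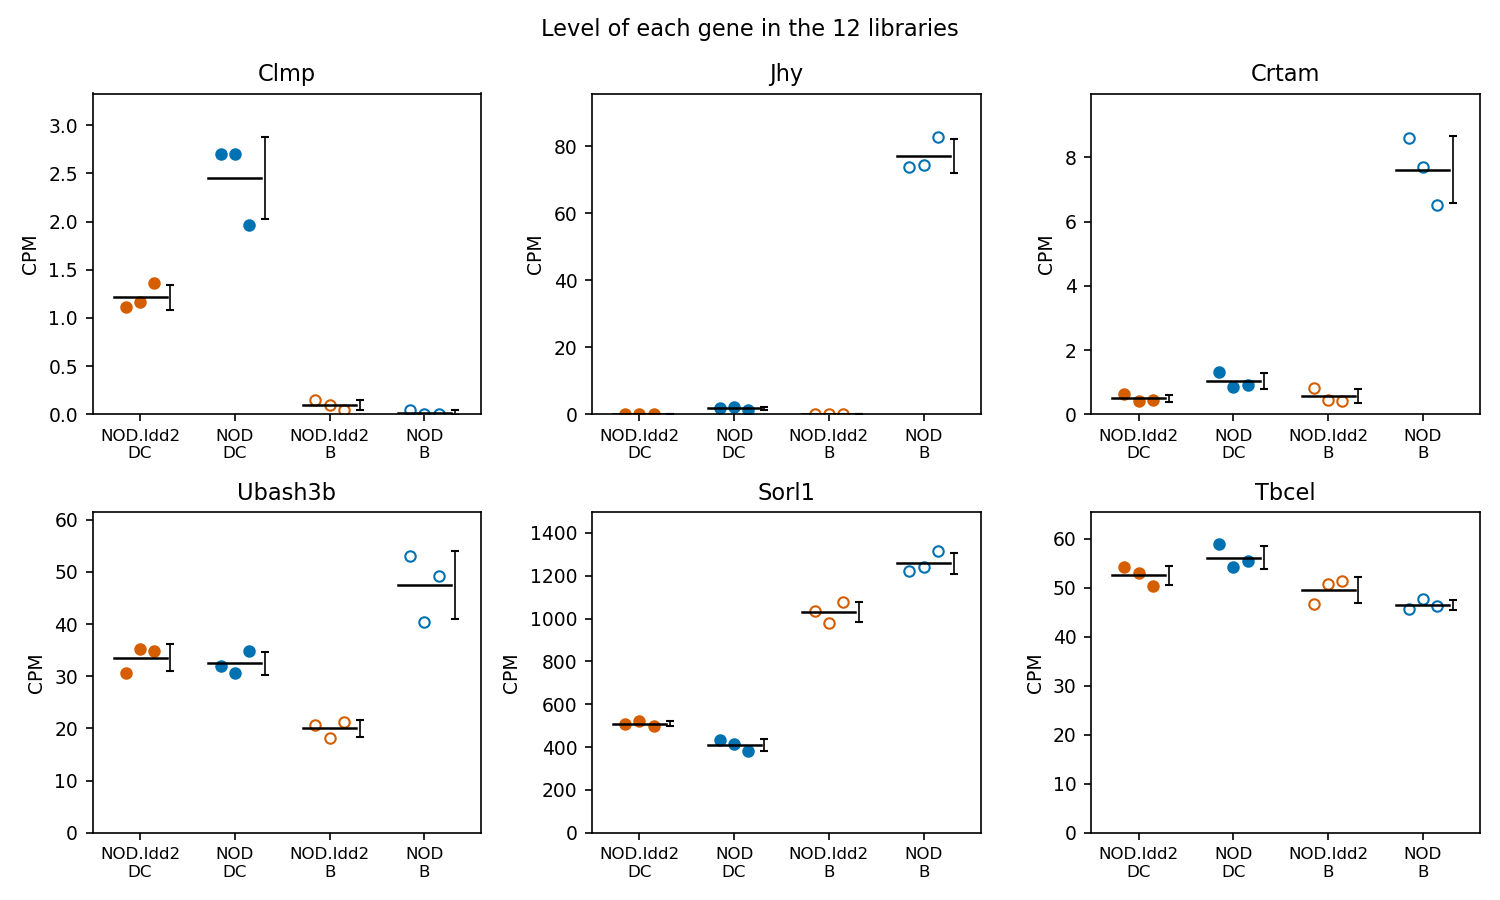
Level of each of the 6 genes in CPM (vertical axis, linear from 0, scale differing by panel) in the 12 libraries; points are libraries (filled, dendritic cells; open, B cells; orange, NOD.Idd2; blue, NOD), horizontal lines group means, bars SD. Jhy is seen at 73.9 to 83.0 CPM in NOD B cells alone among the B cell groups, whereas Tbcel stays between 45.6 and 58.8 CPM in all libraries.

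Ubash3b was lower in NOD.Idd2 B cells and overlapped between the strains in dendritic cells. In dendritic cells it was at 30.5, 35.2 and 34.9 CPM in NOD.Idd2 (33.6 ± 2.62) and at 31.9, 30.6 and 34.8 CPM in NOD (32.5 ± 2.15), with a log2 fold change of 0.06 (SE 0.08). In B cells it was at 20.7, 18.1 and 21.2 CPM in NOD.Idd2 (20.0 ± 1.66) and at 53.1, 40.4 and 49.2 CPM in NOD (47.6 ± 6.53), with no overlap and a log2 fold change of -1.25 (SE 0.11). Without the libraries numbered 3 it was -1.28 (SE 0.12).

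Sorl1 had the highest level per length of the 6 in B cells, and its strain difference had opposite signs in the cell types. In dendritic cells it was at 509.9, 519.7 and 499 CPM in NOD.Idd2 (509.7 ± 10.2) and at 435, 414 and 383 CPM in NOD (411 ± 26.4), with a log2 fold change of 0.33 (SE 0.05). In B cells it was at 1035, 981 and 1076 CPM in NOD.Idd2 (1031 ± 47.3) and at 1223, 1239.8 and 1315 CPM in NOD (1259 ± 49.0), with a log2 fold change of -0.29 (SE 0.05), or -0.30 (SE 0.05) without the libraries numbered 3. The groups did not overlap in either cell type.

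Clmp was low everywhere and mainly a transcript of the dendritic cell libraries. In dendritic cells it was at 1.11, 1.17 and 1.36 CPM in NOD.Idd2 (1.21 ± 0.134) and at 2.71, 2.70 and 1.97 CPM in NOD (2.46 ± 0.425), with no overlap and a log2 fold change of -1.04 (SE 0.24). In B cells it had 6, 4 and 2 counts in NOD.Idd2 and 2, 0 and 0 counts in NOD. The ratio of these 12 to 2 counts, 6.14, had a 95% exact counting interval of 1.37 to 56.5.

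Tbcel lay between 45.6 and 58.8 CPM in all 12 libraries. It was at 54.2, 53.0 and 50.3 CPM in NOD.Idd2 dendritic cells (52.5 ± 1.99) and at 58.8, 54.3 and 55.4 CPM in NOD dendritic cells (56.2 ± 2.39), with no overlap by a narrow margin and a log2 fold change of -0.08 (SE 0.06). In B cells it was at 46.6, 50.7 and 51.4 CPM in NOD.Idd2 (49.6 ± 2.60) and at 45.6, 47.7 and 46.3 CPM in NOD (46.6 ± 1.04). These overlapped, with a log2 fold change of 0.09 (SE 0.05), and 0.05 (SE 0.07) without the libraries numbered 3.

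Among all genes tested between the strains, 1.29% of 14441 in dendritic cells and 0.160% of 15011 in B cells were called by edgeR's quasi-likelihood test at a Benjamini-Hochberg adjusted p under 0.05. By direction, 0.665% were higher and 0.623% lower in NOD.Idd2 dendritic cells, and 0.0733% higher and 0.0866% lower in NOD.Idd2 B cells. CPM values of the strains did not overlap for 5 of 6 members in dendritic cells, against 16.5% of all genes tested there, and for 4 of 5 in B cells, against 12.8%. Since the members were chosen from these contrasts, nothing is read from these counts. Just outside the neighbourhood, Arhgef12, a guanine nucleotide exchange factor, was at 52.1 to 58.1 CPM in NOD.Idd2 B cells and 54.3 to 56.5 CPM in NOD B cells. In dendritic cells Arhgef12 was at 32.8 to 33.1 CPM in NOD.Idd2 and 31.4 to 35.3 CPM in NOD. Outside the other edge, Scn3b had 6, 12 and 2 counts in NOD.Idd2 dendritic cells, against 1, 1 and 0 in NOD dendritic cells. In B cells Scn3b had 3 counts over NOD.Idd2 and 0 over NOD. Gramd1b, a sterol transfer protein inside the neighbourhood at that edge, was at 33.3 to 35.3 CPM in NOD.Idd2 B cells and 44.3 to 49.9 CPM in NOD B cells.

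The interval from Gramd1b (chr9:40293233-40531383) to Tbcel holds 26 other symbols of the count table, chosen by position, of which 8 were tested between the strains in each cell type. The interval was drawn around members with known strain differences, so its counts and p-values are given as descriptions. In dendritic cells 4 of the 8 passed, against 1.29% of all genes. Hspa8, the constitutive cytosolic heat shock chaperone, was at 507, 529 and 431 CPM in NOD.Idd2 and 118, 176 and 242 CPM in NOD, and rose (log2 fold change 1.47, SE 0.19, edgeR adjusted p = 0.00212). Gramd1b fell to 78.2, 71.3 and 69.2 CPM in NOD.Idd2, against 91.8, 93.6 and 96.9 CPM in NOD (-0.35, SE 0.06, edgeR adjusted p = 0.0106). The other 2 have provisional symbols and were singled out after their values were seen: the long intergenic RNA Gm39321, beyond the start of Sorl1, fell to 1.55 CPM in NOD.Idd2 against 4.32 CPM in NOD (-1.44, SE 0.24, edgeR adjusted p = 0.0117), and Gm48293, antisense to an intron of Clmp, rose to 1.62 CPM in NOD.Idd2 against 0.277 CPM in NOD (2.53, SE 0.33, edgeR adjusted p = 0.00269). Gm48293 reached the filter only through NOD.Idd2 dendritic cells, with 98 counts there against 21 in NOD. The number passing was 3 of 8 without NOD.Idd2 replicate 1, against 0.482% of all genes. It was 2 of 8 without NOD.Idd2 replicate 2, against 0.430%, and 2 of 8 without NOD.Idd2 replicate 3, against 0.524%.

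In B cells 1 of the 8 passed, against 0.160% of all genes. Gm39321 was at 12.4, 9.44 and 11.8 CPM in NOD.Idd2 and 29.7, 38.0 and 28.8 CPM in NOD (log2 fold change -1.52, SE 0.15, edgeR adjusted p = 0.0166). None of the 8 passed without NOD.Idd2 replicate 1, 2 or 3, each left out in turn, where 0.0848%, 0.0911% and 0.111% of all genes did. Without the libraries numbered 3 of both strains 3 of the 8 passed, against 0.303% of all genes, among them Gm39321 (-1.64, SE 0.15, edgeR adjusted p = 0.00226) and Hspa8 (1.25, SE 0.10, edgeR adjusted p = 0.00120). With the replicate number as a block 7 of the 8 passed, against 1.04% of all genes. Hspa8 (1.29, edgeR adjusted p = 7.60e-06) and the sterol desaturase gene Sc5d (0.37, 0.00474) were higher in NOD.Idd2, and Gramd1b (-0.47, 0.000343), Gm39321, Gm18586, Gm16214 and Gm48611 were lower. Without the block Hspa8 was at 593, 697 and 324 CPM in NOD.Idd2 and 297, 241 and 125 CPM in NOD (edgeR adjusted p = 0.726), and Gramd1b was at an adjusted p of 0.0587. Values of the strains did not overlap for 6 of 8 in dendritic cells, against 16.5% of all genes, and for 8 of 8 in B cells, against 12.8%. Gm18586, Gm48611 and Gm48114 reached the filter through NOD B cells, with 64, 64 and 62 counts there, against 0, 12 and 21 in NOD.Idd2. Their being tested thus depended on the group where they were high, and nothing is read from these counts.

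**Figure D2:**
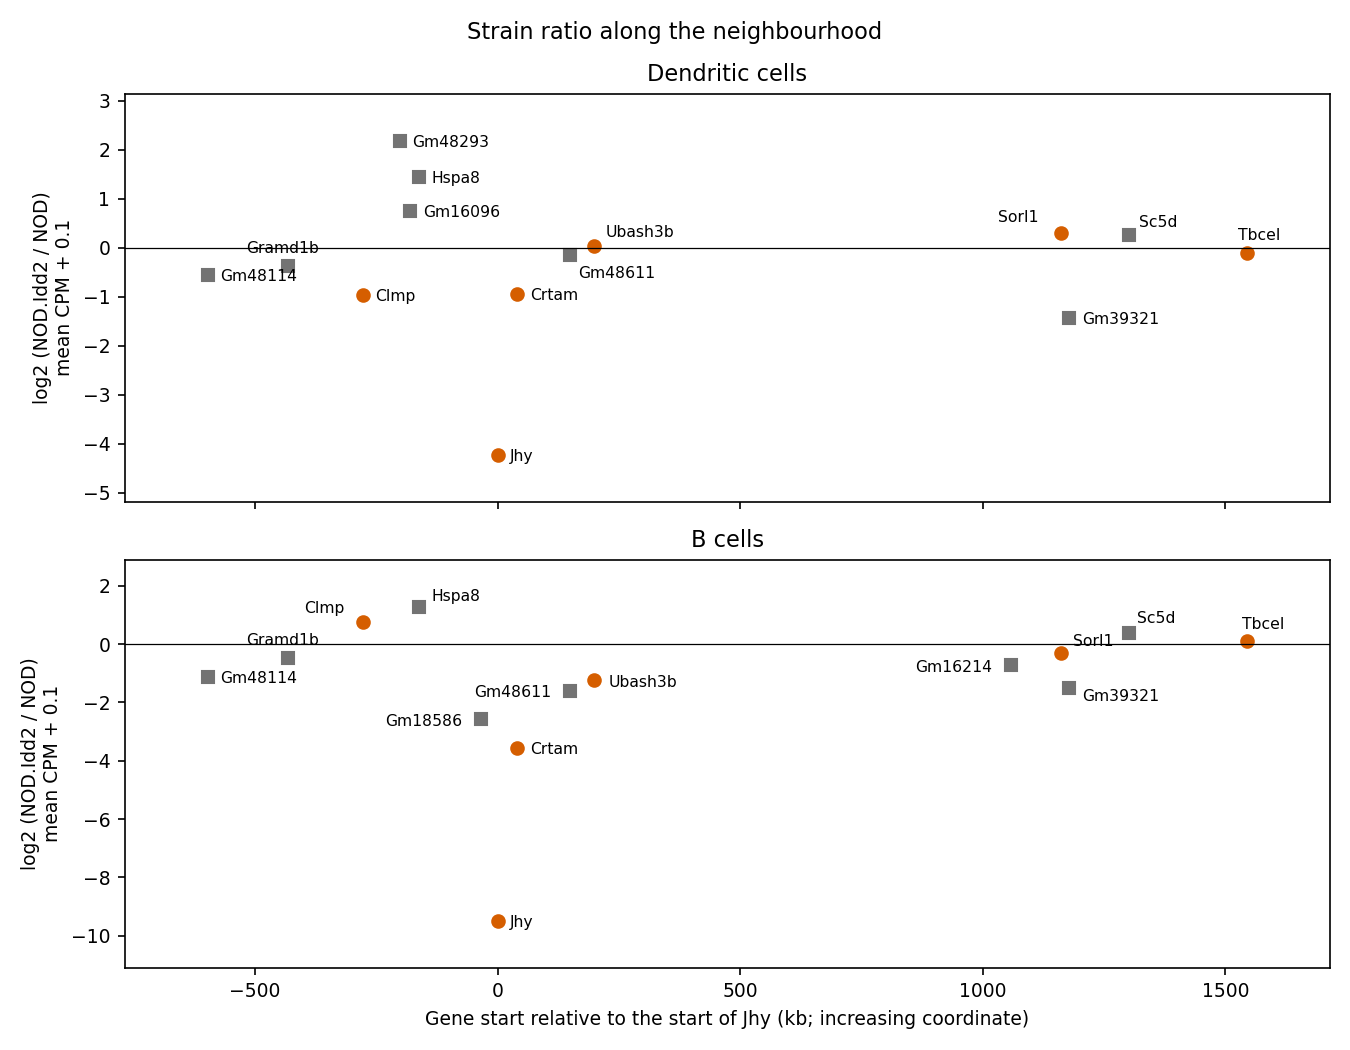
Log2 ratio of mean CPM plus 0.1, NOD.Idd2 over NOD (vertical axis), by the start of each gene in kb from the start of Jhy (horizontal axis), in dendritic cells (top) and B cells (bottom); orange circles are the 6 members, grey squares other tested genes of the interval. The lowest point in both panels is Jhy, at -4.22 in dendritic cells and -9.49 in B cells, Crtam is next in B cells at -3.55, and Hspa8 lies above 0 in both.

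**Figure D3:**
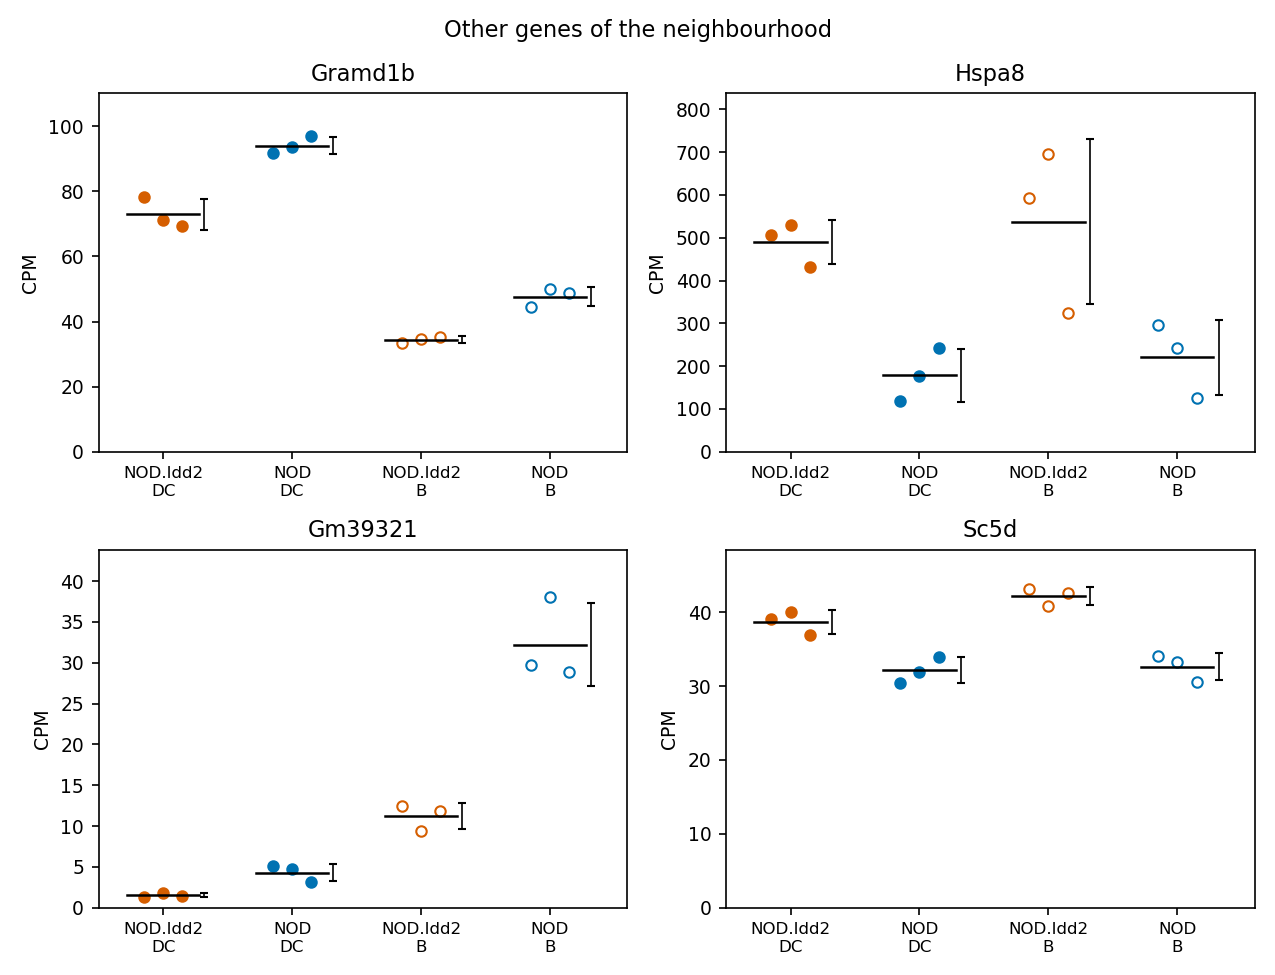
Level in CPM (vertical axis, linear from 0) of Gramd1b, Hspa8, Gm39321 and Sc5d in the 12 libraries; points, lines, bars and colours are as in the plot of the 6 genes. In NOD.Idd2 and NOD B cells the library numbered 3, the right-hand point of each group, is the lowest for Hspa8, at 324 and 125 CPM.

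Most genes differed between the cell types. By edgeR's test 75.7% of 16588 genes did so in NOD.Idd2, 36.7% higher and 38.9% lower in dendritic cells, and 76.4% in NOD, 37.7% higher and 38.7% lower. CPM values of the cell types did not overlap for 3 of the 6 members in NOD.Idd2, against 78.5% of all genes, and for 6 of 6 in NOD, against 77.5%. The members were chosen for their strain differences in these same libraries, so nothing is read from these counts.

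In NOD.Idd2, the log2 fold change, dendritic minus B cells, was 0.74 (SE 0.10) for Ubash3b and -1.02 (SE 0.05) for Sorl1, and the cell types did not overlap. It was -0.18 (SE 0.34) for Crtam and 0.09 (SE 0.05) for Tbcel, and the sign of Crtam was positive without NOD.Idd2 dendritic cell replicate 2 (0.01) or NOD.Idd2 B cell replicate 1 (0.18). Leaving out libraries or changing the fit moved Tbcel between 0.04 and 0.15. Jhy had 0 counts in NOD.Idd2 dendritic cells and 1 in NOD.Idd2 B cells, and no fold is given.

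In NOD, the log2 fold change was -5.45 (SE 0.14) for Jhy, -2.89 (SE 0.26) for Crtam, -0.55 (SE 0.10) for Ubash3b and -1.62 (SE 0.05) for Sorl1, all lower in dendritic cells. It was 0.27 (SE 0.05) for Tbcel, higher in dendritic cells. Clmp passed the filter on low counts through its dendritic cell libraries alone: its log2 fold change of 3.59 (SE 0.45) in NOD.Idd2 rests on 12 counts in B cells, and that of 7.0 (SE 0.54) in NOD on 2. The count ratio in NOD was 158 with a 95% exact counting interval of 43.2 to 1318, wider than that SE implies. The cell type comparisons of the strains contrast separate libraries but come from 1 fit of all 12, so their SEs share 1 estimate of the spread. Ubash3b had opposite signs in them. The difference between them was not tested, since it equals the difference of the strain effects from which the genes were chosen.

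**Figure D4:**
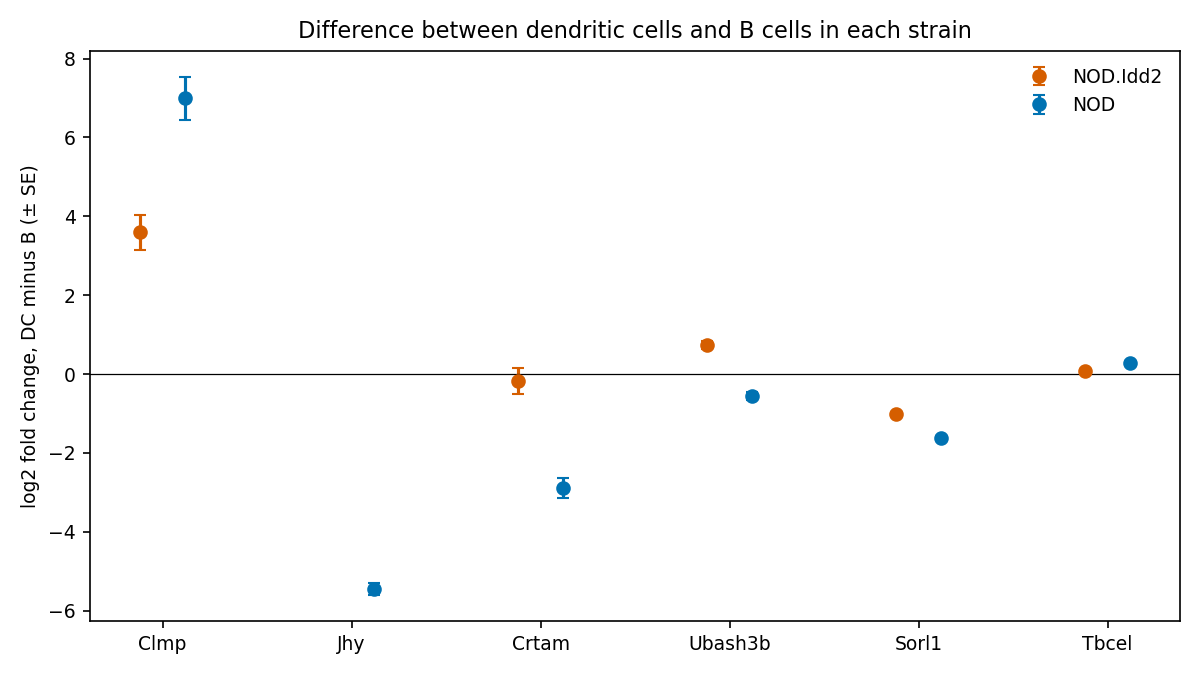
Log2 fold change, dendritic cells minus B cells (vertical axis), with SE bars, for each gene in NOD.Idd2 (orange, left) and NOD (blue, right); Jhy in NOD.Idd2 is not drawn because both groups were at or under 1 count. Ubash3b lies at 0.74 in NOD.Idd2 and -0.55 in NOD, and Clmp is above 3 in both. The SE bars do not fully cover the counting error of Clmp, which had few counts in B cells.

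Ordered from high to low, the groups ran alike for Jhy and Crtam, with NOD B cells first, NOD dendritic cells next and both NOD.Idd2 groups last, which overlapped each other. Ubash3b was highest in NOD B cells and lowest in NOD.Idd2 B cells, with the 2 dendritic cell groups between them and overlapping. For Sorl1 the B cells of NOD lay highest, followed by NOD.Idd2 B cells, NOD.Idd2 dendritic cells and NOD dendritic cells, with no overlap between neighbours. For Clmp NOD dendritic cells were highest, followed by NOD.Idd2 dendritic cells and both B cell groups at 12 counts or fewer. For Tbcel NOD dendritic cells were highest, and each remaining neighbour overlapped the next. Per length, as CPM divided by the union exon length in kb (RPKM), mean levels in NOD.Idd2 B cells were 91.0 for Sorl1, 5.84 for Tbcel, 2.73 for Ubash3b, 0.109 for Crtam, 0.0209 for Clmp and 0.00229 for Jhy. In NOD B cells the RPKM levels were 111 for Sorl1, 23.1 for Jhy, 6.49 for Ubash3b, 5.49 for Tbcel, 1.48 for Crtam and 0.00323 for Clmp. Jhy thus stood second of the 6 in NOD B cells and last in NOD.Idd2 B cells.

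The genes whose log2 CPM pattern over the 12 libraries was most like each member were ranked by Pearson r among 12984 genes with non-provisional symbols, as a description, since the libraries fall into 2 cell types of 6 libraries. Jhy and Crtam were each other's nearest, at r = 0.953, and Usp2, a deubiquitinating enzyme gene, was next for both, at 0.899 for Jhy and 0.932 for Crtam, and second for Ubash3b at 0.810. Usp2 (chr9:44067021-44095627) was at 0.369 CPM in NOD.Idd2 and 0.354 CPM in NOD dendritic cells, and at 0.228 ± 0.0759 CPM in NOD.Idd2 and 2.90 ± 0.225 CPM in NOD B cells. Next came Lrrc73 for Jhy (0.807) and Srpk1 for Crtam (0.809), both on chromosome 17. Nearest to Ubash3b was D16Ertd472e (0.904), and Kcnq1ot1 (0.776) followed Usp2. For Sorl1 they were Fancm (0.991), D11Wsu47e (0.991) and Apc (0.988), for Clmp Srp54a (0.994), Atf6 (0.992) and Cyrib (0.990), and for Tbcel Tmem104 (0.957), Sparc (0.950) and Dis3l2 (0.945).

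Genes that work with the members were followed in lists of motile cilia, CRTAM partners, receptor signalling, retromer, CLMP relatives and tubulin cofactors. In dendritic cells 3 of 55 list members tested passed edgeR's test between the strains, against 1.29% of all genes. There 10 of the 55 were at an unadjusted p under 0.05, against 11.3% of all genes, and 4 were called by DESeq2, against 2.05%. In B cells 0 of 58 passed edgeR's test, against 0.160% of all genes, with 1 at an unadjusted p under 0.05, against 6.40%, and 1, Cadm1, called by DESeq2, against 0.813%. In dendritic cells Cadm1, the ligand of CRTAM, fell to 51.7, 57.9 and 51.3 CPM in NOD.Idd2, against 92.8, 75.4 and 95.7 CPM in NOD, without overlap (log2 fold change -0.69, SE 0.09, edgeR adjusted p = 0.00212). Cadm1 was the 1 of 8 partners tested that passed edgeR's test, where 0.623% of all genes were lower. DESeq2 also called the partner Cd226 there, in the other direction. It was at 8.43 to 9.56 CPM in NOD.Idd2 and 4.32 to 6.98 CPM in NOD dendritic cells. Whether the fall of Cadm1 goes with Crtam, or with the position of Cadm1 relative to the introduced segment, was not tested. In B cells Cadm1 was at 0.299 to 0.378 CPM in NOD.Idd2 and 0.701 to 1.07 CPM in NOD (-1.41, SE 0.25, edgeR adjusted p = 0.249). Of 12 tubulin and tubulin cofactor genes 2 rose in NOD.Idd2 dendritic cells, where 0.665% of all genes were higher, the tubulin genes Tubb5 (0.35, SE 0.05, edgeR adjusted p = 0.00542) and Tuba1b (0.37, SE 0.08, 0.0408). The 14 receptor signalling genes, 11 retromer genes, 7 cilia genes and 3 CLMP relatives tested in dendritic cells held no call.

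**Figure D5:**
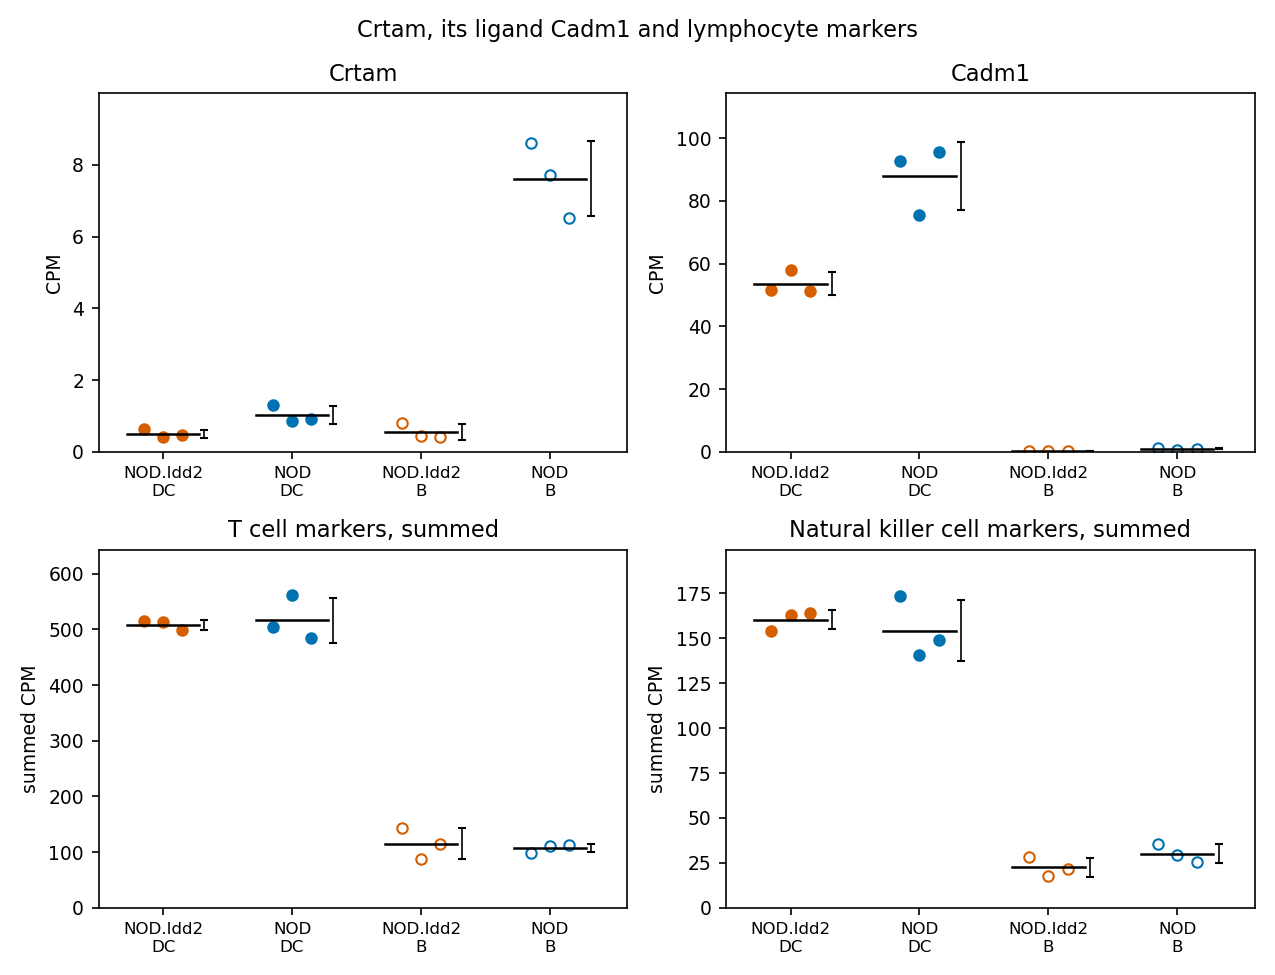
Level in CPM (vertical axis, linear from 0) of Crtam and Cadm1, and the summed CPM of 9 T cell and 8 natural killer cell markers, in the 12 libraries; points, lines, bars and colours are as in the plot of the 6 genes. Cadm1 is at 51.3 to 57.9 CPM in NOD.Idd2 dendritic cells and 75.4 to 95.7 CPM in NOD dendritic cells, while the marker sums of the strains overlap.

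Between the cell types many list members differed, as did 76.4% of all genes in NOD, 37.7% higher and 38.7% lower. Of the 14 receptor signalling genes, 13 differed in NOD, 4 higher and 9 lower in dendritic cells. Their median log2 fold change was -0.92 against -0.04 over all genes. The list holds Cd79a and Cd79b, which are also among the B cell markers above, so nothing is read from that median. Cd79b, a chain of the B cell receptor (-6.46, SE 0.17, edgeR adjusted p = 1.99e-12), and the inhibitory receptor gene Cd22 (-2.23, SE 0.06, 4.55e-12) were lower. Of 12 sorting and retromer genes 11 differed, 7 higher and 4 lower, among them the related receptor Sort1 (7.46, SE 0.15, edgeR adjusted p = 1.44e-13) and the adaptor Gga2 (-3.51, SE 0.05, 1.90e-14), while Sorl1 had lower values in dendritic cells. Of 10 CRTAM partners 7 differed, 4 higher and 3 lower, with Cadm1 at 6.55 (SE 0.14, edgeR adjusted p = 2.91e-13) and Cadm3 at 11.65 (SE 0.17, 1.48e-14). The value of Cadm3 rests on 4 counts over the NOD B cell libraries, which its SE does not reflect. Of 4 CLMP relatives 3 were higher in dendritic cells, among them the adhesion molecule genes Esam (9.06, SE 0.20, edgeR adjusted p = 3.33e-13, with 16 counts over NOD B cells) and F11r (5.21, SE 0.14, 2.20e-12). Of 8 cilia genes 6 differed, 4 higher and 2 lower, and of 12 tubulin and cofactor genes 6 differed, 2 higher and 4 lower.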

How the data were processed

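Per the labels' protocols, Trizol was used for RNA and a KAPA HyperPrep kit for poly(A)-selected libraries. STAR (version given as 0.12.2) and the build GRCm38 come from the submitters' processing notes, so both strains share 1 reference. How reads were counted, with which annotation and strand setting, is not given in the sources used here. Raw counts deposited by the authors are whole numbers per gene symbol; their normalized table was not used. Of 28188 symbols, 27693 were placed with GENCODE M21 and 360 with RefSeq, 43 were ambiguous and 92 unmatched.

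Genes kept by filterByExpr (minimum count 10, minimum total 15) were tested with edgeR 4.0.16 quasi-likelihood fits (R 4.3.3, TMM, Benjamini-Hochberg over all genes): strains on the 6 libraries of each cell type, cell types as contrasts in a fit of all 12. Each edgeR SE is the absolute log2 fold change divided by the square root of the F statistic of the test. It can be too small where a group is near 0 counts. For Clmp between the cell types in NOD it was 0.54, against 1.07 by DESeq2. Tests were checked on simulated counts. Alternatives were DESeq2 1.42.0, RLE size factors, other filters, the replicate block, other sets of libraries and each library left out. No 2 replicates were alike within sampling noise (lowest chi-square per gene 3.12).

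Members and lists were chosen with earlier results of these data known. Named were the members, tested genes of the interval without provisional symbols, its flanks, the 3 most alike genes of each member (log2 CPM with a prior count of 2), up to 3 list members called between strains and up to 2 between cell types in NOD. Deviations from the group mean in B cells, compared between NOD.Idd2 and NOD libraries with the same number, correlated at 0.519, 0.326 and 0.753. The main fits used no pairing, and the replicate number entered as a block only in an alternative fit. The labels state no pairing, and replicates 1 and 2 also correlated across numbers (0.395 and 0.355). In dendritic cells and between cell types same-numbered libraries correlated at under 0.1.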

Additional observations from a re-analysis of the deposited data

Results flagged for a closer look

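Sorl1 was higher in every NOD.Idd2 library than in every NOD library in dendritic cells and lower in every one in B cells. The log2 ratio of mean CPM between the strains differed by 0.60, dendritic cells minus B cells. The difference between cell types was not tested.

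Clmp was lower in every NOD.Idd2 dendritic cell library than in every NOD dendritic cell library and higher in every NOD.Idd2 B cell library than in every NOD B cell library. In B cells this separation is narrow: NOD.Idd2 replicate 3 and NOD replicate 1 both had 2 counts, at 0.0460 and 0.0445 CPM. The log2 ratio of mean CPM differed by -3.71, dendritic cells minus B cells, and in B cells it rests on 12 counts in NOD.Idd2 and 2 in NOD. This difference was not tested.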

How the results depend on the processing

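In B cells the count of genes called between the strains was 24, and was 122 with DESeq2, 156 with the replicate number as a block, 42 in a fit of all 12 libraries, 46 without both libraries numbered 3, and 13 to 18 with each library left out in turn. In dendritic cells it was 186, and was 296 with DESeq2, 700 with no filter on low counts, 94 in the fit of all 12 libraries, 214 with the block, and 63 to 332 with each library left out. Of the 8 other genes of the interval tested in B cells, 1 was called, against 0.160% of all genes. Of the same 8, DESeq2 called 6 (0.813% of all genes) and the block 7 (1.04%). Without both libraries numbered 3 it was 3 (0.303%), and with each library left out 0 to 1 (13 to 18 genes in all). With RLE size factors 2 of 8 were called, among 25 of 15011 genes. With no filter 3 of 22 tested were called, among 35 of 25753 genes. The fit of all 12 libraries called 4 of 10 tested, among 42 of 16588 genes. In dendritic cells 4 of 8 were called, against 1.29% of all genes. With each library left out it was 2 to 5 of 8, among 63 to 332 genes in all. The 5 came without NOD replicate 3, where 332 of 14581 genes were called. These interval counts under alternatives were chosen after seeing the data. Crtam between the cell types in NOD.Idd2 lay between -0.38 and 0.18 on the log2 scale over its alternatives, with positive values of 0.01 and 0.18 when 1 library was left out. With the block, the counts between cell types stayed within 1.5 times. The causes were not tested. Depth limits Jhy, Crtam and Clmp, which have few counts in some groups.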
